A study of Mus musculus with 6 samples.

Results

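The genes described here are 10 markers of alternative macrophage activation and scavenger uptake: the scavenger and mannose receptors Mrc1, Msr1 and Cd163, the galactose-binding lectins Clec10a and Mgl2, the secreted proteins Chil3, Retnla and Ccl24, the crosslinking enzyme Tgm2 and the VEGF receptor Flt1. They were taken by symbol from a table of 19162 genes, and each symbol matched 1 row. The libraries came from bone marrow cells of C57BL/6J mice cultured with GM-CSF (40 ng/mL, 4 days), which drives the growth and maturation of granulocytes, macrophages and dendritic cells. In 3 libraries nothing else was added (control 1, 2 and 4), and in the other 3 the medium held an extra 34.7 mM KCl (KCl 1, 2 and 4). The series calls the cells BM-MDSCs (bone marrow myeloid-derived suppressor cells), but the labels name no sort or gate, so the libraries can hold a mixture of myeloid types. In such bulk RNA, fewer cells of a type and less RNA per cell cannot be told apart. The added salt also raises osmolality, and no other salt or solute was analysed here.

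Alternative activation is the state that macrophages take up under the type 2 cytokines IL-4 and IL-13. Both signal through the receptor chain IL-4Ra, whose kinases phosphorylate STAT6, and STAT6 then binds the promoters of genes such as Arg1, Retnla, Chil3 and Mrc1. Scavenger receptors are a separate, functional class: they take up modified lipoproteins, debris, microbes or haemoglobin complexes, and some of them are also raised by IL-10, glucocorticoids or CSF1. Several of these genes are not specific to macrophages, since Chil3 is strongly transcribed in developing granulocytes and monocytes, the lectins in dendritic cells, and Flt1 in endothelium.

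The libraries numbered 4, control 4 and KCl 4, tracked the remaining 4 more closely than independent libraries could, which bears on every p-value below. Over 8231 genes averaging 300 counts or more, the mean CPM (counts rescaled by library total) of this pair divided by the mean of the other 4 had an SD of 0.00953 on the log2 scale. The SD from counting noise would be 0.0442, and for the 14 remaining choices of a pair it was 0.123 to 0.262. The genes described here showed it too: the mean for Chil3 was 4718 CPM in the pair and 4721 in the other 4 libraries, that for Tgm2 was 204.04 against 204.58, and that for Clec10a was 34.05 against 33.85. Library totals ran from 14118724 to 21694831 counts. Because of this tracking, SEs and p-values from all 6 libraries may be too small. The changes of the 10 genes are therefore given with all 6 libraries and without this pair.

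With all 6 libraries, 9 of the 10 genes were abundant enough to test, 3 were higher in KCl (Msr1, Cd163 and Ccl24), 2 were lower (Mgl2 and Flt1) and 4 did not pass (Mrc1, Clec10a, Chil3 and Tgm2), while Retnla was too scarce to test. The test was edgeR's quasi-likelihood test with an adjusted p under 0.05 over all 13326 tested genes, of which 12.4% were called higher and 10.5% lower, 22.9% in all. Cd163 and Ccl24 entered the test only through their KCl libraries, so a difference in them was a condition of being tested. Without control 4 and KCl 4, 0 of the 9 were called, against 0.458% of all genes tested in that fit, and the 5 smallest adjusted p, for Cd163, Flt1, Mgl2, Ccl24 and Tgm2, then lay between 0.0680 and 0.0821. The KCl and control libraries did not overlap for 6 of the 9, 4 higher and 2 lower. Of all tested genes, 20.2% and 18.4% separated in these directions. For Cd163 and Ccl24, 2 of the 4 higher, separation followed from how they entered the test. The median log2 fold change of the 9, Cd163 and Ccl24 included, was 0.37, against -0.0045 over every gene tested. All log2 fold changes are given as KCl minus control.

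**Figure D1:**
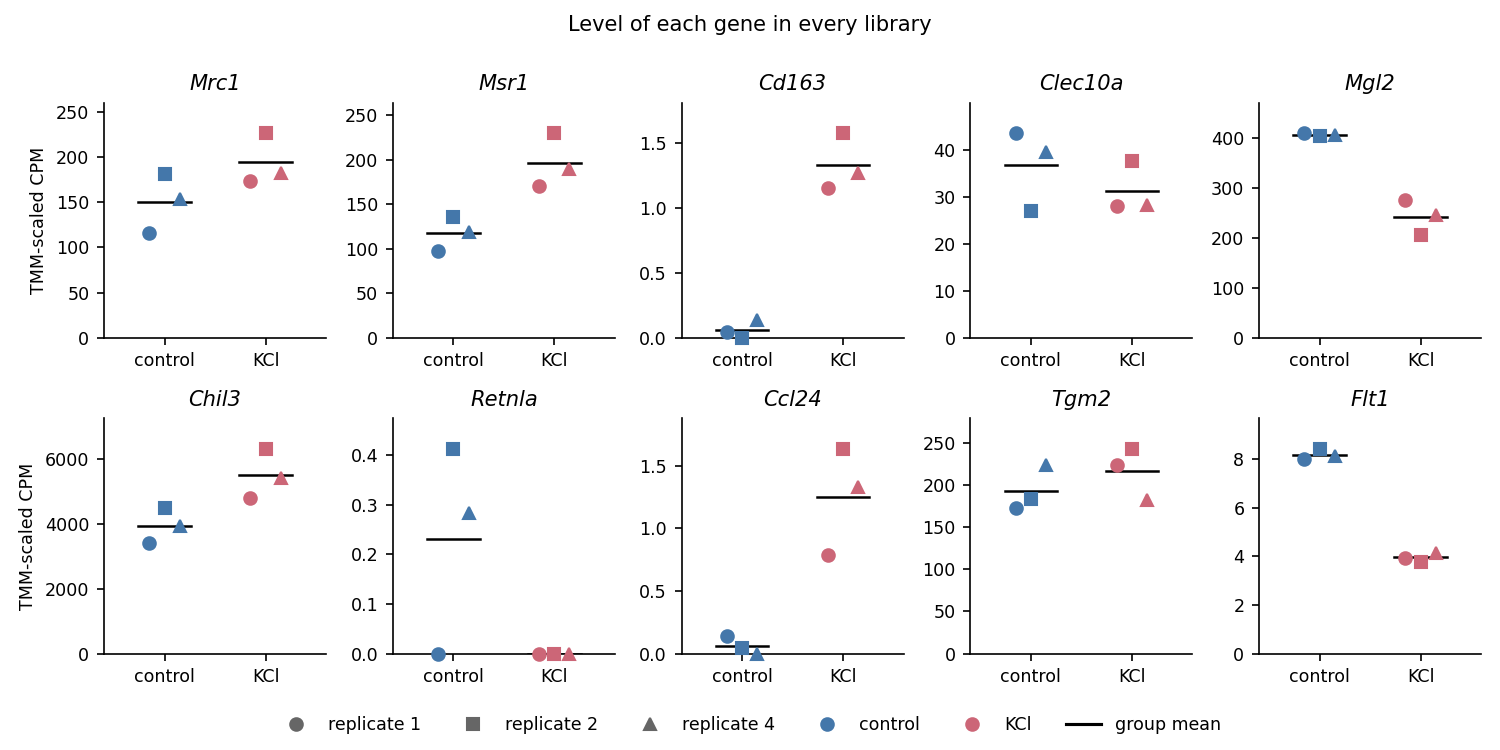
TMM-scaled CPM (vertical axes, linear from 0) of each of the 10 genes in the 3 control and 3 KCl libraries, with the replicate number as the symbol and the group mean as a line. The groups are separate for Msr1, Cd163, Chil3, Ccl24, Mgl2 and Flt1 and overlap for Mrc1, Clec10a and Tgm2, and Retnla was detected in control 2 and control 4 alone.

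**Figure D2:**
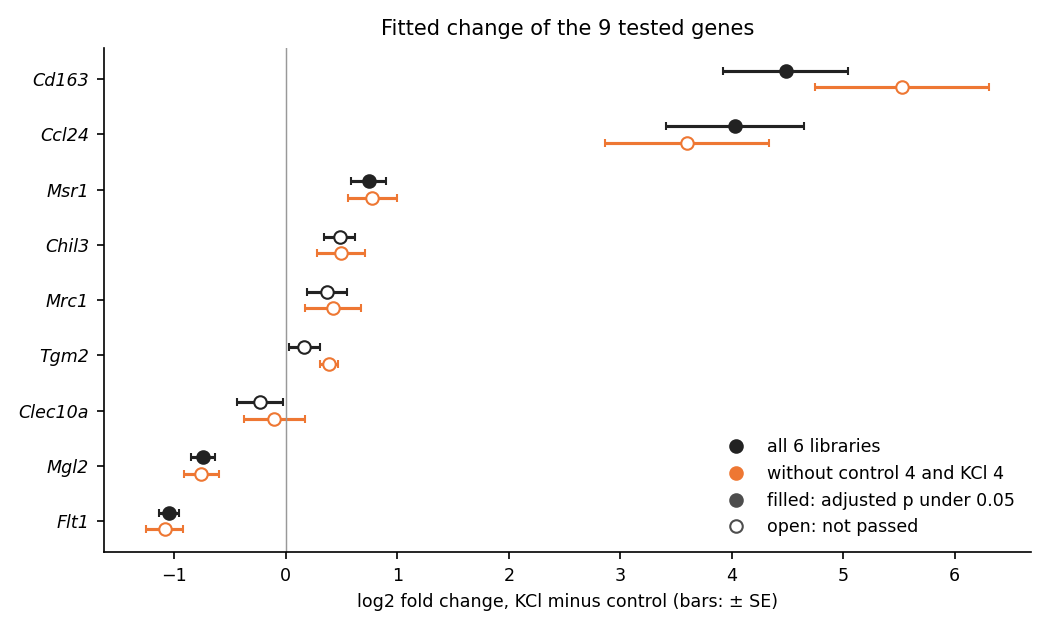
Log2 fold change, KCl minus control, with its SE for the 9 tested genes, with all 6 libraries (black) and without control 4 and KCl 4 (orange), filled where the adjusted p was under 0.05. Directions were the same in both fits for all 9, and no gene was called in the second.

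Among the uptake receptors, Msr1 rose moderately, Cd163 appeared from near 0, and Mrc1 was not called. Msr1 encodes the class A scavenger receptor, which takes up modified low-density lipoprotein. It measured 97.3, 136 and 119 CPM across control 1, 2 and 4 against 171, 230 and 190 across KCl 1, 2 and 4. The lowest KCl library lay above the highest control library. Its log2 fold change was 0.74 ± 0.16 (SE, n = 3 per group), or 1.67-fold, with adjusted p = 0.0197. Without control 4, KCl 2 or KCl 4 the adjusted p was 0.0613, 0.0522 and 0.0541, and without replicate 4 as a whole the change was 0.78 ± 0.22 with adjusted p = 0.111.

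Cd163 encodes the macrophage receptor for haptoglobin-haemoglobin complexes. Control 1, 2 and 4 held 1, 0 and 2 counts, against 22, 27 and 23 in KCl 1, 2 and 4. It was thus close to undetected in every control library and low but present in every KCl library. The summed counts, 72 against 3, gave a library-size-scaled ratio of 24.8, with an exact conditional 95% interval of 8.17 to 123 that covers counting error only. The fitted log2 fold change of 4.48 ± 0.56 depends on the prior count (adjusted p = 0.00498, and 0.0680 without replicate 4). Even in KCl the gene was rare, at 1.33 ± 0.22 CPM (mean ± SD, n = 3).

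Mrc1 encodes the mannose receptor CD206, which binds mannose-ended glycoproteins and is a common surface marker of alternative activation. It measured 116, 181 and 154 CPM across control 1, 2 and 4 against 173, 226 and 183 across KCl 1, 2 and 4. The groups overlapped, because control 2 lay above KCl 1. Its log2 fold change of 0.37 ± 0.18 did not pass (adjusted p = 0.220, and 0.43 ± 0.25 without replicate 4). In the plot of every library, Mrc1, Msr1 and Chil3 were each highest in control 2 and KCl 2 and lowest in control 1 and KCl 1 within their group.

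The lectins Clec10a and Mgl2 are neighbours on the plus strand of chromosome 11, and their products bind galactose or N-acetylgalactosamine. Mgl2 (CD301b), also a marker of type 2 conventional dendritic cells, measured 409, 405 and 407 CPM across control 1, 2 and 4 against 277, 206 and 246 across KCl 1, 2 and 4. The control libraries were nearly equal, and all 3 KCl libraries lay below them. Mgl2 fell, with a log2 fold change of -0.75 ± 0.11 (adjusted p = 0.00681), or 1.68-fold lower, and -0.76 ± 0.15 without replicate 4 (0.0811). Clec10a (CD301a) measured 43.4, 27.0 and 39.5 CPM across control against 28.0, 37.6 and 28.2 across KCl. The groups overlapped, and its change of -0.23 ± 0.21 did not pass (adjusted p = 0.549, and -0.10 ± 0.27 with adjusted p = 0.818 without replicate 4).

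A difference in response between these lectins was neither shown nor excluded. Mgl2 had 9.43, 14.98 and 10.30 counts for each Clec10a count in control 1, 2 and 4, and 9.86, 5.48 and 8.71 in KCl 1, 2 and 4. The ranges overlapped, and the mean log2 ratio was 3.50 in control and 2.96 in KCl. A two-sided exact permutation test (p = 0.2) could not decide this, because 3 against 3 libraries cannot go below 0.1. The genes are close copies: 13.1% of the distinct 50-base stretches in Mgl2 transcripts and 9.02% of those in Clec10a transcripts also occur in transcripts of other genes, of which 270 are shared between these lectins. How reads common to both were counted is not stated in the labels, and the split between the lectins is uncertain.

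Among the secreted proteins, Chil3 was by far the most abundant gene of the set and Retnla almost absent. Chil3 encodes Ym1, a chitinase-like lectin without enzyme activity. It measured 3398, 4507 and 3952 CPM across control 1, 2 and 4 against 4808, 6315 and 5429 across KCl 1, 2 and 4. It took 0.343% to 0.454% of all counts in control and 0.483% to 0.608% in KCl. All KCl libraries lay above all control libraries, but the spread within each group was wide, and the log2 fold change of 0.48 ± 0.14 did not pass (adjusted p = 0.0565). It was called without control 2 (0.58, adjusted p = 0.0438) and not without replicate 4 (0.202). Of the distinct 50-base stretches of Chil3, 438 (26.9%) occur in other genes, 275 of them in its relative Chil4 and 217 in Gm6522. Chil4 had 9 to 20 counts per library. How reads common to these genes were counted is not stated in the labels.

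Retnla encodes RELMa (FIZZ1), a secreted cysteine-rich protein that is strongly induced by IL-4. Control 1, 2 and 4 held 0, 9 and 4 counts, against 0 in each KCl library. It was thus listed at 0 in 1 control library as well as in all of KCl, and did not reach the abundance needed for a test. A summed count of 0 in KCl allows up to 0.0549 CPM, and against that limit the control sum of 13 counts, taken as counted, was at least 4.19-fold higher (3 counts over the group). The exact conditional 95% interval, which covers counting error in both sums, has its lower bound at 2.94-fold higher in control.

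Ccl24 encodes eotaxin-2, a chemokine that draws eosinophils through CCR3. Control 1, 2 and 4 held 3, 1 and 0 counts, against 15, 28 and 24 in KCl 1, 2 and 4. Every KCl library lay above every control library, at 1.25 ± 0.43 CPM in KCl. The summed counts of 67 and 4 gave a scaled ratio of 17.3 (exact 95% interval 6.46 to 65.5), and the fit called it higher (adjusted p = 0.00792, and 0.0811 without replicate 4). Ccr3, the gene of that receptor, was not called, with a log2 fold change of 0.28 ± 0.33 (adjusted p = 0.638). It measured 6.24, 6.46 and 10.4 CPM across control 1, 2 and 4 against 13.2, 8.22 and 6.25 across KCl 1, 2 and 4, and the groups overlapped.

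Tgm2, the calcium-dependent tissue transglutaminase that crosslinks proteins, was not called. It measured 173, 183 and 224 CPM across control 1, 2 and 4 against 224, 243 and 182 across KCl 1, 2 and 4. Replicate 4 ran opposite to the other replicates, with control 4 above KCl 4. The log2 fold change was 0.16 ± 0.14 with all 6 libraries (adjusted p = 0.519) and 0.39 ± 0.08 without replicate 4 (0.0821). Exons of Tgm2 overlap those of Gm20412 and Rprd1b on the opposite strand, and whether counting used strand is not given in the sources used here.

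Flt1, the gene of VEGF receptor 1, fell most evenly of the set. It measured 8.0, 8.43 and 8.12 CPM across control 1, 2 and 4 against 3.94, 3.79 and 4.15 across KCl 1, 2 and 4. The groups lay far apart compared with their spread. The log2 fold change was -1.05 ± 0.09, or 2.06-fold lower, with adjusted p = 0.00257, and -1.09 ± 0.17 without replicate 4 (0.0686). By p-value it was the 81st of the 13326 tested genes. Of 8 endothelial markers 4 were tested, 1 was higher (Tie1, 1.66 ± 0.28) and 0 lower, where 12.4% of all tested genes were higher. Tie1 was not called without replicate 4 (adjusted p = 0.0962). The summed level of the endothelial markers was 73.0 to 78.6 CPM in control and 74.8 to 83.0 in KCl. Most of that was Pecam1, at 1014 to 1520 counts per library, which leukocytes also express. Tie1 had 33 to 173 counts per library and Kdr, the gene of VEGF receptor 2, 54 to 103 (0.56 ± 0.32, adjusted p = 0.302), while Cdh5 (1 to 12 counts) and Tek, Emcn and Stab2 (0 to 5) were near 0.

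Levels of different genes were compared only as deposited FPKM (counts divided by gene length and library total). In control, Chil3 led at 1655 to 2187 FPKM and ranked 13 to 17 of all 19162 genes. Mgl2 followed at 103 to 105 FPKM, then Tgm2 at 34.0 to 43.7, Msr1 at 24.6 to 34.3, Mrc1 at 15.7 to 24.5, Clec10a at 4.68 to 7.54 and Flt1 at 0.561 to 0.589. Of these neighbours in control, the ranges of Tgm2 and Msr1 overlapped. Retnla (0 to 0.694), Ccl24 (0 to 0.0909) and Cd163 (0 to 0.0204) overlapped each other at the bottom, and Retnla also overlapped Flt1.

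In KCl, Chil3 ranked 10 to 12 at 2331 to 2931 FPKM. Msr1, at 42.9 to 55.3 FPKM, then overlapped both Mgl2 (50.03 to 70.30) and Tgm2 (35.8 to 45.6), which it had not done for Mgl2 in control. Mrc1 stood at 23.4 to 29.2 FPKM and Clec10a at 4.85 to 6.22. Ccl24, at 0.499 to 0.990 FPKM, lay above Flt1, at 0.253 to 0.290, and Flt1 above Cd163, at 0.167 to 0.218. In control the order of Ccl24 and Flt1 was the opposite.

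**Figure D3:**
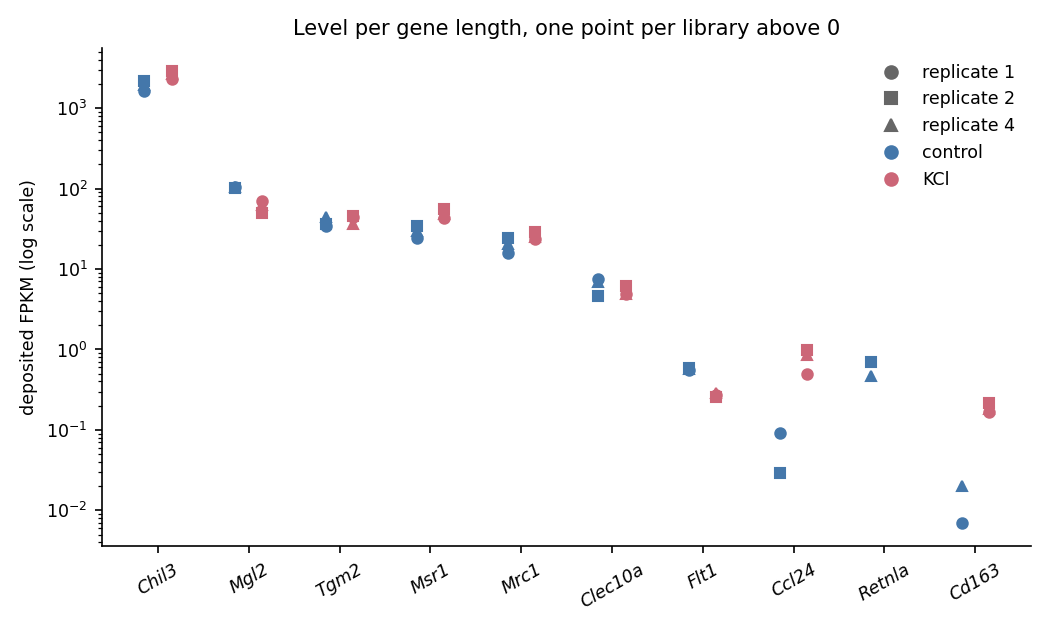
Deposited FPKM (vertical axis, log scale) of each gene in each library where it was above 0, ordered by the mean over all 6 libraries. Chil3 lies at 1655 FPKM or more in every library, and Retnla, Ccl24, Flt1 and Cd163 lie below 1.

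The promoters of Retnla, Chil3, Cd163 and Mgl2 are shown because they span this range, from a STAT6 target that was almost silent to an abundant gene, a gene that appeared in KCl and a gene that fell. Of the 10 genes, 6 matched the RefSeq promoter table (GRCm38.p6). The 250 bases upstream of the start site were searched on both strands for the STAT6 motif TTCNNNNGAA, the STAT5 motif TTCNNNGAA, the PU.1 motif GAGGAAGT, the C/EBP motif TTGCNNAA and the NFAT motif TGGAAA. The intervals are chr16:48842359-48842608 (plus strand) for Retnla, chr3:106167565-106167814 (minus) for Chil3, chr6:124304401-124304650 (plus) for Cd163 and chr11:70130107-70130356 (plus) for Mgl2. Each is printed 5′ to 3′ along the gene, with matches to any of these motifs in capitals:
Retnla: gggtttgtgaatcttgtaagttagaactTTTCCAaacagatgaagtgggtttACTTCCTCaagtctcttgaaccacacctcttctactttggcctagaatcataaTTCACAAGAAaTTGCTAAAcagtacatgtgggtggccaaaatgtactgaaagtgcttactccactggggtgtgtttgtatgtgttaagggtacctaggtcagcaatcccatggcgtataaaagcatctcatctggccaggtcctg
Chil3: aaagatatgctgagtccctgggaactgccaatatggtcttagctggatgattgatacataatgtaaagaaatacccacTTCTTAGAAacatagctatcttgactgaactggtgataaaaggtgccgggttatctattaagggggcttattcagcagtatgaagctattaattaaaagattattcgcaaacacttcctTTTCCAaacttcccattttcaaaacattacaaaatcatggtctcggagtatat
Cd163: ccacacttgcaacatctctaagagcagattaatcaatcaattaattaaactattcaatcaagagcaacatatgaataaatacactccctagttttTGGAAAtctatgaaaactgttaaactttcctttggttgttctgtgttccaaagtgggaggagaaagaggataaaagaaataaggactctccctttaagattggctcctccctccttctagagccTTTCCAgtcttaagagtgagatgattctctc
Mgl2: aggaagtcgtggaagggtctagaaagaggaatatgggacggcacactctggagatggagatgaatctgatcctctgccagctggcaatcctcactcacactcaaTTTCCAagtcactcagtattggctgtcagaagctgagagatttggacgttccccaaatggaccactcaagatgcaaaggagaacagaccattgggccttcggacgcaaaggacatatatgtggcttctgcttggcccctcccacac

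Of the 6 promoters, Retnla alone held a STAT6 match, at -145 to -136 from the start site, followed by a C/EBP match at -134 to -127, with a PU.1 match at -198 to -191 and an NFAT match further upstream. STAT5 lies downstream of the GM-CSF receptor, and its motif matched in Chil3, at -172 to -164. Cd163 held NFAT matches at -155 to -150 and -31 to -26, and Mgl2 held an NFAT match at -146 to -141. Mrc1 and Flt1 held none of the 5 motifs. Among 32851 RefSeq promoters of the same length, 5.85% held the STAT6 motif, 7.02% the STAT5 motif, 2.44% the PU.1 motif, 9.56% the C/EBP motif and 18.6% the NFAT motif. No STAT6 and STAT5 matches overlapped in these promoters. A match is a description of the letters in this window.

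Genes of related pathways and families are given from lists, with changes from all 6 libraries. Across these lists 32 genes passed, and 2 of them, Socs3 and Ccl17, also passed without control 4 and KCl 4. For the other 30 the adjusted p was then 0.0522 to 0.189. The share of all tested genes that passed, 22.9%, is the background for each list's count. The lists were chosen with earlier results of these data known, so a share above that background describes a list and is no test. Flt4 and Colec12 reached the abundance needed for a test in KCl libraries alone, and Arg1 and Ssc5d in control libraries alone, so a difference in these 4 was a condition of being tested.

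The receptors and transducers of IL-4 and IL-13 were called at a rate near the background. Of 19 genes on this list, 16 were tested, 2 were higher, 1 was lower and 13 did not pass (18.8% called), with a median log2 fold change of 0.04. The receptor chain gene Il4ra (0.05 ± 0.06, adjusted p = 0.662) and Stat6 (0.04 ± 0.07, adjusted p = 0.719) changed sign under 2 and 3 of 18 alternatives, where neither was called. The cytokines themselves were scarce, with 9 to 28 counts of Il4 and 3 to 6 of Il13 per library. Jak3, the kinase paired with the common gamma chain, fell by 1.28 ± 0.10 on the log2 scale, from 1295, 1060 and 771 counts in control to 405, 389 and 434 in KCl. Socs3, a feedback inhibitor of cytokine receptors, rose by 1.13 ± 0.09, and the adaptor gene Irs2 rose by 0.47 ± 0.06.

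Other alternative activation genes went both ways. All 22 were tested, 2 were higher, 4 lower and 16 did not pass (27.3% called, near the background), and the median was -0.16. The lower genes include Arg1, for which a difference was a condition of being tested. The growth factor gene Igf1 rose by 1.10 ± 0.11, from 82, 98 and 66 counts to 188, 159 and 160, and the transcription factor gene Klf4 by 0.53 ± 0.09. Those that fell were the chemokine gene Ccl17 (-1.58 ± 0.09), the lipid-sensing nuclear receptor gene Pparg (-0.64 ± 0.07), Il31ra (-1.22 ± 0.19) and the arginase gene Arg1 (-3.70 ± 0.81). Arg1, scarce in KCl, had 20, 129 and 60 counts across control and 3, 6 and 6 across KCl, and its adjusted p of 0.0225 became 0.0568 once control 4 was left out and 0.0672 to 0.0790 when a KCl library was, and it was 0.0900 with limma-voom on all 6. Chil4 (Ym2), the nearest relative of Chil3, was scarce and did not pass (0.57 ± 0.18, adjusted p = 0.159).

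Other scavenger receptor genes also split. Of 20, 15 were tested, 4 were higher, 3 lower and 8 did not pass (46.7% called), with a median of 0.22. The called genes include Colec12 and Ssc5d, for which a difference was a condition of being tested. Scarf1, a class F receptor for modified lipoproteins, rose by 1.35 ± 0.13, Lrp1, a large endocytic receptor, by 0.81 ± 0.10, the macrophage endocytic receptor gene Stab1 (stabilin-1) by 0.72 ± 0.12, and the scarce collectin receptor gene Colec12 by 2.58 ± 0.34, from 5, 3 and 4 counts to 19, 28 and 23. Marco, which like Msr1 is a class A scavenger receptor, fell by 2.04 ± 0.38, from 39, 88 and 43 counts to 17, 8 and 14. The oxidised lipoprotein receptor gene Olr1 (LOX-1) fell by 0.72 ± 0.13, from 613, 787 and 463 counts to 319, 387 and 361. Ssc5d, which shares the cysteine-rich domain type of Cd163, fell by 1.48 ± 0.27 from 12, 13 and 8 counts to 3, 4 and 4 (adjusted p = 0.0533 to 0.0674 without control 4, KCl 1 or KCl 4, and 0.145 with DESeq2 on all 6). Cd36, the class B fatty acid and lipoprotein receptor, did not pass (0.00 ± 0.28, adjusted p = 0.996), with 1740, 1254 and 1314 counts across control and 1179, 1880 and 1116 across KCl.

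Signals known to raise Cd163 and Mrc1 include IL-10, glucocorticoids and CSF1, and 14 genes of these inputs were described. Of them 12 were tested, 4 were higher, 1 was lower and 7 did not pass (41.7% called), with a median of 0.16. Dusp1, which glucocorticoids and stress kinases induce, rose by 0.50 ± 0.06, the CSF1 receptor gene Csf1r by 0.49 ± 0.10, Per1 by 0.37 ± 0.09 and Fkbp5 by 0.23 ± 0.06. The ligand gene Csf1 fell by 0.95 ± 0.12, from 1230, 1293 and 835 counts to 665, 431 and 565. The call of Csf1r was lost without control 4 or any 1 KCl library (adjusted p from 0.0512 to 0.0568), that of Per1 without control 1, control 4, KCl 1 or KCl 4 (0.0840 to 0.0918) and that of Fkbp5 without any 1 library but control 2 (0.0943 to 0.147). The Fkbp5 call was also lost with RLE, upper-quartile or library-size scaling and without the count filter (adjusted p from 0.0578 to 0.0939) and held in 4 of 18 alternatives, and that of Per1 was lost with upper-quartile scaling (0.0502).

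Of 9 other genes of the VEGF system in the table, 8 were tested, with a median of 0.44. Of these, 4 were higher, 0 lower and 4 did not pass (50% called, above the background of 22.9%). The higher genes include Flt4, for which a difference was a condition of being tested. Over all tested genes 12.4% were higher and 10.5% lower, so only the count higher lay above the background. A count of 0 lower among 8 is near it. The lymphatic receptor gene Flt4 (VEGF receptor 3) rose from 3, 2 and 1 counts in control to 25, 18 and 25 in KCl (adjusted p = 0.00270). The co-receptor genes Nrp1 (0.72 ± 0.09) and Nrp2 (0.29 ± 0.06) and the ligand gene Vegfb (0.41 ± 0.07) rose, Nrp2 with adjusted p = 0.0561 without control 4. Vegfa, the main ligand, did not pass (0.21 ± 0.27, adjusted p = 0.655), and the direction of its change turned under 2 of 18 alternatives.

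Near relatives of the 10 genes were called at a rate near the background. Of 19, 11 were tested, 2 were higher, 0 lower and 9 not called (18.2% called), with a median of 0.25. The chitinase gene Chit1 rose by 1.67 ± 0.46, from 18, 4 and 7 counts to 35, 24 and 30, and Ly75, of the mannose receptor family, by 0.25 ± 0.06. Chit1 missed the threshold without control 4 or any 1 KCl library (adjusted p from 0.0917 to 0.129) and without the count filter (0.0587), and Ly75 without control 2, control 4, KCl 2 or KCl 4 (0.0615 to 0.0847). Retnlg, the neutrophil-expressed relative of Retnla, measured 264, 429 and 651 counts across control against 758, 1036 and 315 across KCl and did not pass (0.61 ± 0.60, adjusted p = 0.585).

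Genes of classical activation, the state that interferon gamma and bacterial products induce, also went both ways. Of 18, 15 were tested, 4 were higher, 2 lower and 9 did not pass (40% called), with a median of 0.26. Besides Socs3, which is on this list too, the cyclooxygenase gene Ptgs2 (1.50 ± 0.15), Il12a (1.19 ± 0.13), which encodes a subunit of IL-12, and the formyl peptide receptor gene Fpr2 (0.75 ± 0.17) rose. The costimulatory gene Cd80 (-0.78 ± 0.13) and Il12b (-2.24 ± 0.41), the other IL-12 subunit, fell. Fpr2 was not called once control 1, control 4, KCl 2 or KCl 4 was left out (adjusted p from 0.0590 to 0.0736) and Il12b without KCl 4 (0.0531). Nos2, the counterpart of Arg1 in classical activation, had 3, 3 and 19 counts across control and 21, 8 and 3 across KCl, too few to test.

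**Figure D4:**
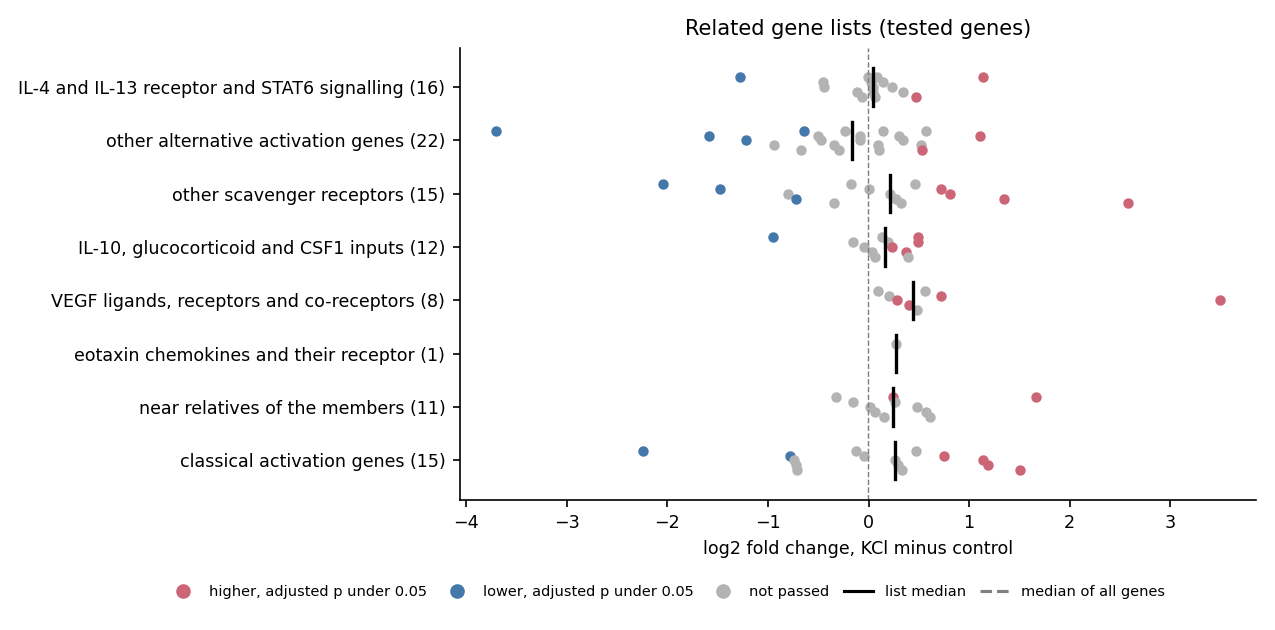
Log2 fold change, KCl minus control, of the tested genes on each of 8 related lists (number tested in parentheses), coloured where the adjusted p was under 0.05, with the list median as a black bar and the median of all tested genes as a dashed line. The VEGF list has the highest median, 0.44, among lists with more than 1 tested gene, and the other alternative activation genes the lowest, -0.16.

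Markers of the cell types that express these genes were called at rates near or above the background. Of 31 tested markers of macrophages, monocytes, dendritic cells and neutrophils, 9 were called and 22 were not with all 6 libraries. The share called was 25%, 33.3%, 37.5% and 22.2% for these types in turn, against 22.9% of all tested genes. Without replicate 4, 1 of the markers was called, against 0.458% of all genes tested in that fit. Of 8 macrophage markers 2 were higher (C1qc and Csf1r) and 0 lower, and their summed level was 944 to 1157 CPM in control and 1287 to 1383 in KCl. Of 6 monocyte markers 2 were higher (Fcnb and Ly6c2), with sums of 988 to 1157 CPM and 1370 to 1651. Of 8 dendritic cell markers 0 were higher and 3 lower (Itgax, H2-Ab1 and Zbtb46), with sums of 4052 to 5700 CPM in control and 3214 to 3910 in KCl. Of 9 neutrophil markers 2 were higher (Ngp and Ltf), with sums of 13916 to 15813 CPM and 16860 to 23946. A few abundant markers carry these sums, with Csf1r giving 51.9% to 60.4% of the macrophage sum, Ly6c2 53.2% to 64.1% of the monocyte sum, Cd74 59.9% to 65.3% of the dendritic cell sum and Ngp 26.1% to 31.6% of the neutrophil sum. The sums were higher in every KCl library for macrophages, monocytes and neutrophils, and lower in every KCl library for dendritic cells.

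Eosinophil markers were lower in 5 of 8 and higher in 0 (62.5% called), where 10.5% of all tested genes were lower. Their sums were 2353 to 2584 CPM in control and 962 to 1118 in KCl, while the eosinophil chemokine gene Ccl24 rose. Without control 4 and KCl 4, 4 of the 5 (Ear1, Ear2, Ear6 and Prg2) were still called lower. In that fit 0.458% of all tested genes were called. Of 6 basophil and mast cell markers 1 was lower (Mcpt8) and 0 higher, with overlapping sums of 407 to 531 CPM and 378 to 471. Lymphocyte and stromal sums stayed at 19.4 CPM or less in every library. Of 4 and 5 tested markers, 1 of each list was higher (Ms4a1 and Col1a1), where 12.4% of all tested genes were higher. Neither of these nor Mcpt8 was called without control 4 and KCl 4 (adjusted p = 0.124, 0.162 and 0.0686). No marker in the table was at 0 in all 6 libraries. The part of cell makeup in the changes of the 10 genes was not tested.

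The 10 genes lie on mm10 (GRCm38) as follows, by GENCODE M21, which lists each as protein-coding; the values are for whole genes. Mrc1 (ENSMUSG00000026712) is on chromosome 2 from 14229392 to 14332057, Cd163 (ENSMUSG00000008845) on chromosome 6 from 124304656 to 124330527, Mgl2 (ENSMUSG00000040950) on chromosome 11 from 70130329 to 70137550, Clec10a (ENSMUSG00000000318) on chromosome 11 from 70156197 to 70170834, and Retnla (ENSMUSG00000061100) on chromosome 16 from 48842551 to 48844461, each on the plus strand. On the minus strand, Msr1 (ENSMUSG00000025044) is on chromosome 8 from 39581685 to 39642673, Chil3 (ENSMUSG00000040809) on chromosome 3 from 106147554 to 106167564, Tgm2 (ENSMUSG00000037820) on chromosome 2 from 158116402 to 158146436, Ccl24 (ENSMUSG00000004814) on chromosome 5 from 135569937 to 135573049, and Flt1 (ENSMUSG00000029648) on chromosome 5 from 147561604 to 147726011. The gap between Mgl2 and Clec10a is 18646 bases.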

How the data were processed

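RNA was measured in 6 libraries, 3 control and 3 KCl, grouped by the treatment label and numbered by the titles. The authors deposited whole-number read counts and FPKM values per gene. Per the submitters' processing notes, the tools were HISAT2 2.0.4, StringTie 1.3.3b and edgeR and the build mm10. How reads were counted, and whether by strand, is not given in the sources used here. For 12489 genes with at least 10 counts in every library, the length implied by the deposited FPKM and count agreed across libraries to a relative deviation of 5e-05, so FPKM is the count rescaled and was used only to compare levels between genes. The deposited table paired IDs with symbols, and 19049 of 19162 IDs matched GENCODE M21.

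The count test was run with edgeR 4.0.16 under R 4.3.3 (filterByExpr with minimum count 10 and minimum total 15, TMM scaling, robust quasi-likelihood test, 2-sided, Benjamini-Hochberg adjustment over 13326 genes, threshold 0.05). SEs are the log2 fold change divided by the square root of F. Control 1, 2 and 4 held 20789328, 21694831 and 14118724 counts in total, and KCl 1, 2 and 4 held 18933948, 17814232 and 17935912. The fitting code was tested on simulated data.

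Whether replicates are separate mice or cultures is not given, and p-values measure only the spread among these libraries, which could be technical. Intervals and floors cover counting error only. The 10 genes, the 8 related lists, the 9 marker lists and the tests were chosen with earlier results of these data known. The genes named were all 10, the 3 smallest p in each list, and Il4ra, Stat6, Arg1, Ccr3, Vegfa, Nrp1, Cd36, Chil4, Retnlg and Nos2. Other list genes were named after their values were seen. An item on the lists is not reported here and was left out of their counts, medians and sums. The fit was repeated with scaling by library size, upper quartile or RLE, with the count filter removed or set at a mean CPM of 5, with a replicate block, with each library left out, with both libraries numbered 4 left out, and with DESeq2 1.42.0 and limma-voom (limma 3.58.1). Leaving out both libraries numbered 1 or 2, and a term for replicate 4, were added after the data were seen.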

Additional observations from a re-analysis of the deposited data

How the results depend on the processing

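Of the 9 tested genes of the set, each kept its direction under every alternative in which it was tested, and Mgl2 and Flt1 kept their calls in all but the fit without both libraries numbered 4. That fit called 62 genes (45 higher, 17 lower), and 0 and 0 of the set. Leaving out both libraries numbered 1 called 763 genes (466 higher, 297 lower) and 1 of the set higher. There Cd163 (adjusted p = 0.0530) and Msr1 (0.0522) lost their calls. Leaving out both numbered 2 called 2152, where Clec10a was lower (-0.56, adjusted p = 0.0348) and Cd36 reversed to -0.51. Ccl24 lost its call in that fit (adjusted p = 0.0536). These 3 fits have fewer samples. With mean CPM of at least 5, which drops Cd163 and Ccl24, 1 gene of the set was called higher. Upper-quartile scaling turned the balance of all calls to 1422 higher and 1735 lower. A term for replicate 4 called 1573 genes (922 higher, 651 lower), and the cause of the drop was not tested.

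Leaving out each library in turn called 1439 to 2851 genes, 852 to 1495 higher and 551 to 1356 lower. It was 1439 without control 4 and 1505 without KCl 4. Of the set, 2 to 4 were then called higher and 2 lower. No label says that a shared number marks a shared mouse or culture, so the numbers were not taken to pair samples. Deviations of same-numbered samples from their group means correlated at 0.0234, -0.0555 and -0.746 for replicates 1, 2 and 4. The value for replicate 4 cannot speak to pairing, because the mean of control 4 and KCl 4 tracked that of the other libraries. With the replicate block 1678 genes were called (978 higher, 700 lower), and Chil3 passed (0.48, adjusted p = 0.0262). It also passed with DESeq2 (adjusted p = 0.00786). Of the 32 called genes on the related lists, 8 lost their call with the block (Chit1, Fkbp5, Il31ra, Ly75, Marco, Per1, Ssc5d and Vegfb, adjusted p from 0.0506 to 0.132), 7 with a term for replicate 4, 14 without both libraries numbered 1 and 8 without both numbered 2. At these depths Retnla, and Cd163 and Ccl24 in control, are near the limit of detection.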
